A study of Homo sapiens with 4 samples.

Results

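The genes described here are 34 genes of the lysosome, the acidic compartment in which cells break down proteins, lipids and sugars. They were taken by name from the 58735 genes of each deposited file and fall into 4 classes. There were 6 membrane proteins and sterol carriers, 6 cathepsins, 11 other hydrolases and their activators, and 11 subunits of the proton pump. The RNA came from OMM2.3, an established human uveal melanoma cell line that came from a metastasis in the liver. The study has 4 libraries, 1 for each group. The groups were cells given CCCP and DHA together (the combination), cells given DHA alone, cells given CCCP alone, and control cells given neither. All 4 cultures were grown with 10% fetal bovine serum. CCCP is the protonophore carbonyl cyanide m-chlorophenyl hydrazone, which carries protons across membranes and dissipates the mitochondrial membrane potential. What DHA stands for is not spelled out in the labels, nor are the doses, the times or any vehicle.

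Lysosomal hydrolases are made in the endoplasmic reticulum, tagged with mannose 6-phosphate in the Golgi and carried to the lysosome, where they work at acid pH. The acid is supplied by the vacuolar ATPase (V-ATPase), whose cytosolic V1 sector hydrolyses ATP and whose membrane V0 sector passes protons into the lumen. Many of these genes carry a CACGTG-type promoter element that the MiT/TFE factors TFEB, TFE3 and MITF can bind. In melanocytic cells MITF is also the lineage factor, and melanosomes share several membrane proteins with lysosomes.

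Reads summed over genes ranged from 16900411 to 18937286 per library. Ratios between libraries are given as FPKM, fragments counted per kilobase of exon and scaled to library size, of the first-named group over the second. Their 95% intervals are exact binomial and cover counting error only. Each group is a single library, so the spread between replicates is unknown and no ratio has a replicate check. A gene was tested, that is, entered the comparisons, if it reached 1 FPKM in at least 1 library, which 13678 genes did. Of the 34 genes, 33 passed, and the remaining gene was CTSS. Counts of higher and lower genes, and log2 ratios, were taken on log2(FPKM + 0.5). In bulk RNA, fewer cells of a type and less RNA per cell cannot be told apart. Of 10 leukocyte markers, 1 reached 1 FPKM, CSF1R, with up to 1.25 FPKM, and 5 had 0 reads in every library. Of 8 melanocyte lineage genes 3 reached 1 FPKM, and the pigment enzyme gene TYR had 0 reads. Of 8 fibroblast markers 3 reached it, COL1A1, FAP and PDGFRB. The summed level of the 8 was 8.97 FPKM in the combination, 18.6 with DHA, 20.3 with CCCP and 32.5 in control. With CCCP, COL1A1 had 2.54 FPKM against 8.86 in control and FAP 7.855 against 15.5, while PDGFRB had 9.88 against 8.07. The summed level of the 8 melanocyte lineage genes was 29.8 FPKM in the combination, 36.4 with DHA, 44.7 with CCCP and 45.5 in control. The part of the marker levels in the results below was not tested.

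None of the tested lysosomal genes was 2-fold from its control level under any treatment. Among 33 genes, counts of 0 lie near the shares over all tested genes given here and below. Smaller differences, many with counting intervals that exclude 1, are given by gene further on. With the combination, 0 of 33 were at least 2-fold higher and 0 were at least 2-fold lower, against 4.52% and 5.44% of all tested genes. At 1.5-fold, 2 were higher (NPC1 and CTSL) and 1 was lower (NPC2), against 11.1% and 12.7% of all tested genes. Above control were 16 of the 33 with the combination, against 50.7% of all tested genes. Their median log2 ratio was -0.0046, beside 0.0087 over all tested genes.

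With DHA alone, 0 of 33 were 2-fold higher or lower, against 2% and 1.86% of all tested genes. None reached 1.5-fold either, against 4.43% higher and 4.15% lower, and the ratios ran from -0.34 (ATP6V1A) to 0.26 (ATP6V1D) on the log2 scale. Above control were 16 of 33, against 49.9% of all tested genes. With library totals of recovered reads made equal, this became 12 of 33, against 40.7%.

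CCCP alone gave small differences that mostly pointed one way. Again 0 of 33 were 2-fold higher or lower, against 3.21% and 2.32% of all tested genes, and 0 were past 1.5-fold, against 7.84% and 6.46%. Above control were 27 of 33, against 49.9% of all tested genes, and the median log2 ratio was 0.12, beside 0.00 over all tested genes. Of the 33 counting intervals, 17 lay above 1, 3 lay below it and 13 included it. The matching shares over all tested genes were not taken. By class the medians were 0.07 for the membrane genes, 0.20 for the tested cathepsins, 0.23 for the other hydrolases and 0.05 for the V-ATPase. With equal totals, 22 of 33 lay above control, against 43.0% of all tested genes.

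**Figure D1:**
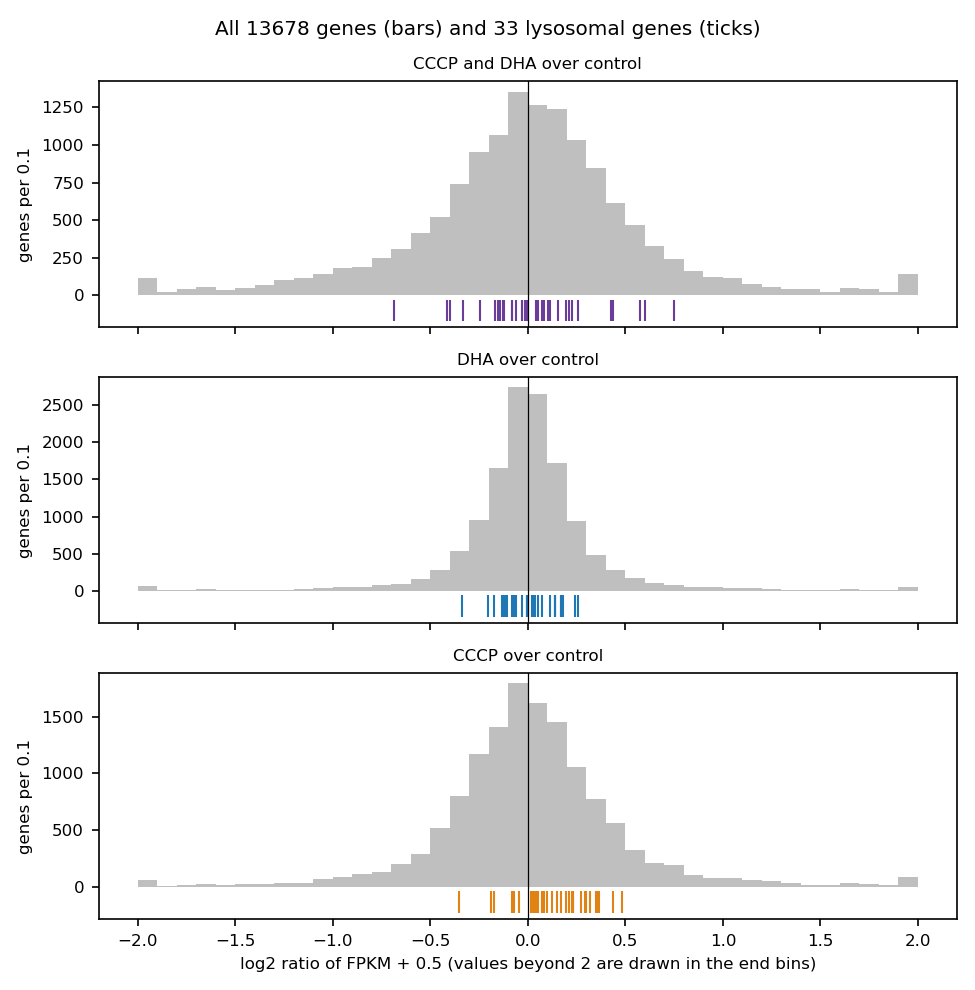
Distribution of log2 ratios to control on log2(FPKM + 0.5) for all 13678 tested genes (bars, number of genes per 0.1 log2 units) and for the 33 lysosomal genes (coloured ticks), from top to bottom for the combination, DHA and CCCP. The ticks stay between -0.69 and 0.75 in the top panel and between -0.34 and 0.26 in the middle panel, and 27 of 33 lie right of 0 in the bottom panel.

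Levels differed between the genes far more than between the libraries. Summed over the 34 genes, FPKM came to 1437 in the combination, 1460 with DHA, 1547 with CCCP and 1385 in control. They held 0.583, 0.571, 0.615 and 0.564% of all reads in the same order. PSAP, which encodes the precursor of the saposins, small proteins that help hydrolases reach their lipid substrates, alone made up 37% of the summed FPKM in the combination and 32.1% in control. In control it stood at 445 FPKM, followed by CD63 at 145, CTSZ at 116, CTSB at 114 and LAMP1 at 61.5 FPKM. CTSZ and CTSB differ by less than 3 FPKM there and changed places when levels were taken per longest coding transcript. At the low end of the tested genes were MCOLN1 at 2.32, ASAH1 at 2.63 and HEXA at 2.89 FPKM. CTSS, which was not tested, was lowest of the 34, at 0.0365 FPKM.

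The exon length behind FPKM sums all annotated isoforms, which lowers the level of some genes more than others. For ASAH1 it is 15378 bases, 5.06 times the longest coding transcript, and for ATP6V0D1 8212 bases, 4.79 times. Per longest transcript, ASAH1 moved up from place 32 to 27 of 34 in control and ATP6V0D1 from 27 to 16, while PSAP and CD63 stayed at 1 and 2. This bears on levels between genes. In ratios of 1 gene between libraries the length cancels out, but a shift between isoforms could still alter them and was not tested. Of the 34 genes, 17 share exon bases with another annotated gene, and 3 share more than 20%: CTSD (52.7%), CTSA (28.5%) and ATP6V1F (23.7%). The library kit does not mark strand, and the sources do not say how reads over shared exons were counted, so values of these 3 are less certain.

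**Figure D2:**
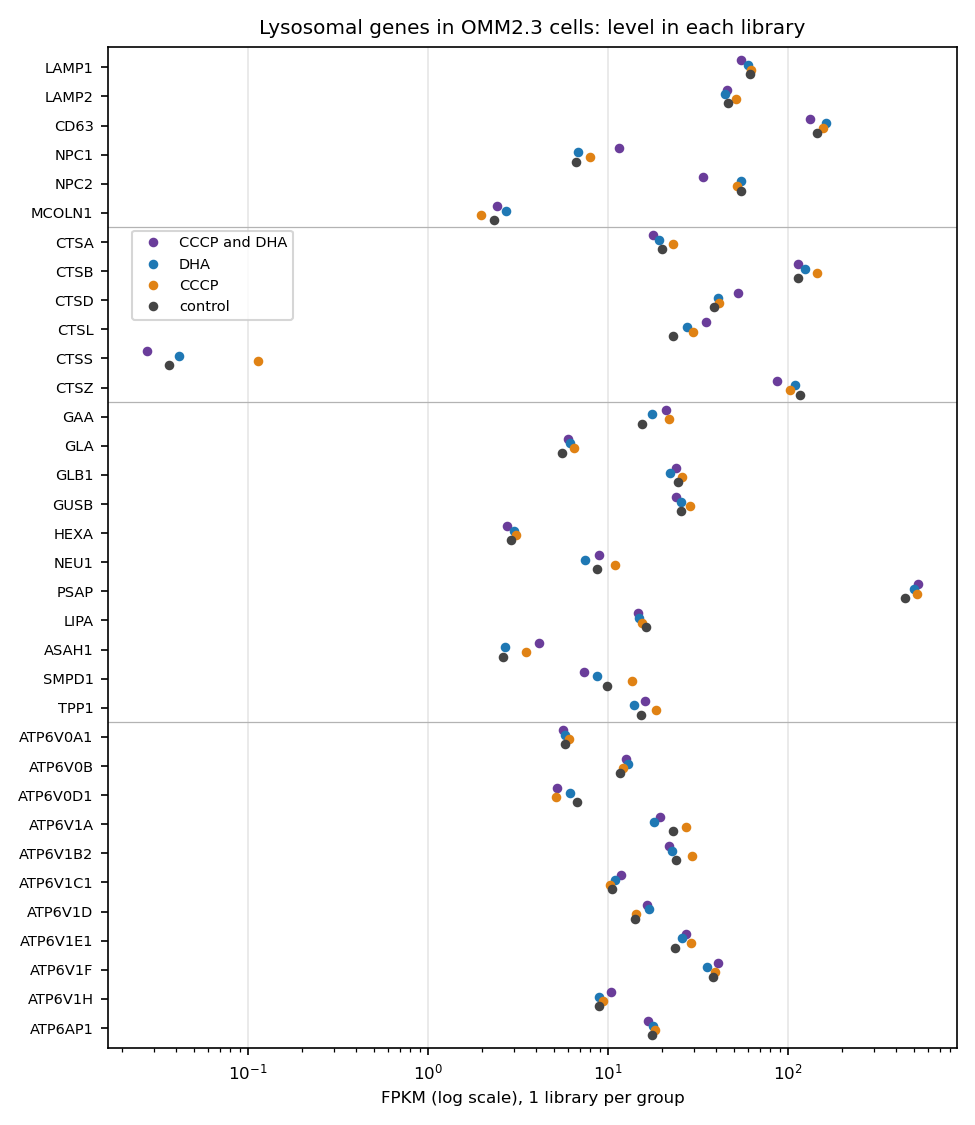
FPKM of the 34 lysosomal genes (log scale), with 1 point per library, coloured by group, and lines between the 4 classes. The spread along a row is small beside the range from MCOLN1, near 2.32 FPKM in control, to PSAP, at 445 FPKM, and CTSS stays below 0.12 FPKM.

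The genes were taken by name and not by their promoters, yet many of them are known to carry the element CACGTG. Its share among them therefore describes their promoters and is not a result of these libraries. Promoter windows from RefSeq (GRCh38.p14, from 250 bases before to 50 after the start site) were found for 24 of the 34 genes, and 9 of these 24 (37.5%) held CACGTG, against 12.9% of 9010 tested genes with a window and 7.26% of all 35116 windows. CACGTG reads the same on both strands. The longer CACGTGAC, searched on both strands and always overlapping CACGTG, was in 7 of 24, against 5.53% of the tested genes. The stretches just before the start site are shown for these 7 genes because they carry the shared element. Each is read 5′ to 3′ on the gene's strand and ends at the base before the start, with CACGTG in capitals.
GAA, chr17:80101481-80101580, plus strand: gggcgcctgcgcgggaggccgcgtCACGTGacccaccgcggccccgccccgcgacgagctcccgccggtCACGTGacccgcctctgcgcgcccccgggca
MCOLN1, chr19:7522524-7522623, plus strand: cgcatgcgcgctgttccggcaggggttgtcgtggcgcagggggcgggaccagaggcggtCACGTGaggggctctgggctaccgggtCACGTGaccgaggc
CTSA, chr20:45891235-45891334, plus strand: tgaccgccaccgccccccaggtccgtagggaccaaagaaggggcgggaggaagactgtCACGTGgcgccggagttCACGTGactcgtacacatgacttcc
CTSD, chr11:1763928-1764027, minus strand: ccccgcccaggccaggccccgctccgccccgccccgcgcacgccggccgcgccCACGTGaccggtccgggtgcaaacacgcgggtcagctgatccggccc
ATP6V0B, chr1:43974860-43974959, plus strand: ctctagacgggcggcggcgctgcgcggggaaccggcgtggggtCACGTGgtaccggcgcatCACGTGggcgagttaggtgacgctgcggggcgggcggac
ATP6V0D1, chr16:67481158-67481257, minus strand: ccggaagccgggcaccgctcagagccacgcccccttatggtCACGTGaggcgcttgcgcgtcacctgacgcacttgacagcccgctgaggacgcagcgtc
LAMP1, chr13:113297039-113297238, plus strand: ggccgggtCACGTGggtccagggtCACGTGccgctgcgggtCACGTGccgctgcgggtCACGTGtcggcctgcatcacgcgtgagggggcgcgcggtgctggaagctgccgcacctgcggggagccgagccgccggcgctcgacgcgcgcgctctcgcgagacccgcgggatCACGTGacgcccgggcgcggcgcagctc

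LAMP1 has 5 copies in the 200 bases shown. The 9 genes with the element, which also include NEU1 and CD63, did not all share a direction under any treatment. Their median log2 ratios were 0.04 with the combination, 0.07 with DHA and 0.10 with CCCP, all against control, beside -0.03, -0.0027 and 0.08 for the 15 genes whose windows lacked it. Of the 9, 5 lay above control with the combination, 5 with DHA and 7 with CCCP. Of the 15 without the element, 7, 6 and 12 did in the same order. Over all tested genes the shares above control were 50.7%, 49.9% and 49.9%. With the combination, the 9 ran from -0.33 (ATP6V0D1) to 0.43 (CTSD). A match to these letters does not show that a factor binds there, and no match says only that the letters are not in this window.

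Among the membrane genes, the abundant structural proteins of the lysosomal membrane varied little. LAMP1, a heavily glycosylated protein that lines the membrane, had 55.2 FPKM in the combination, 60.2 with DHA, 62.3 with CCCP and 61.5 in control. Its combination value was the lowest of the 4, at 0.897 times control (0.866 to 0.93). LAMP2, which also serves as the receptor of chaperone-mediated autophagy, had 46.1, 44.6, 51.7 and 46.6 FPKM in the same order and was highest with CCCP, at 1.11 times control (1.07 to 1.15). CD63, a tetraspanin of late endosomes and melanosomes, had 133 FPKM in the combination, 163 with DHA, 158 with CCCP and 145 in control. Each compound alone thus lay above control and the combination below it, at 0.915 times control (0.885 to 0.947). MCOLN1, the calcium and cation channel TRPML1, had 2.43, 2.7, 1.98 and 2.32 FPKM on 166, 184, 131 and 179 reads in that order. At this depth no difference from control was detectable for it, since all 3 intervals include 1 (0.842 to 1.3 for the combination).

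The NPC1 and NPC2 genes stood at opposite ends of the list with the combination. NPC1 (ENSG00000141458, chromosome 18, 23506184 to 23586898 on GRCh38) encodes the membrane protein that exports cholesterol from the lysosome, and NPC2 (ENSG00000119655, chromosome 14, 74476192 to 74494177) the soluble lumenal carrier that hands cholesterol to it. NPC1 had 11.6 FPKM in the combination, 6.8 with DHA, 7.94 with CCCP and 6.69 in control. Only the combination stood well apart, at 1.73 times control (1.61 to 1.86), the highest ratio of the 33 genes. NPC2 had 33.9 FPKM in the combination, 54.9 with DHA, 51.9 with CCCP and 54.9 in control. Here the combination was the low library, at 0.617 times control (0.581 to 0.656), the lowest ratio of the 33. Against DHA alone the ratios of the combination were 1.7 for NPC1 (1.58 to 1.83) and 0.618 for NPC2 (0.58 to 0.658), and against CCCP alone 1.46 (1.36 to 1.56) and 0.653 (0.613 to 0.696). Each stood beyond most genes of these libraries, with 92.5% of tested genes below NPC1 and 10.2% below NPC2 in the combination against control. NPC1 shares 5.98% of its exon bases with RMC1, and NPC2 6.37% with ISCA2 and MIR4709.

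The cathepsins differed from each other in direction. CTSL, a cysteine protease of the lysosome, had 35.1 FPKM in the combination, 27.3 with DHA, 29.7 with CCCP and 23.0 in control. All 3 treated libraries were above control, by 1.53 (1.41 to 1.65), 1.19 (1.09 to 1.29) and 1.29 times (1.19 to 1.4). CTSD, the main aspartic protease of the lysosome, had 52.8, 41.0, 41.7 and 38.9 FPKM in the same order. Its combination value stood out, at 1.36 times control (1.28 to 1.43), while DHA alone gave 1.05 times (0.992 to 1.12). CTSB, a cysteine protease and the cathepsin with most reads, had 113 FPKM in the combination, 125 with DHA, 145 with CCCP and 114 in control. It was highest with CCCP, at 1.27 times control (1.25 to 1.3), and level with control in the combination, at 0.997 times (0.975 to 1.02).

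CTSZ, a carboxypeptidase, was the one tested cathepsin below control in all 3 treated libraries. It had 87.1 FPKM in the combination, 109.8 with DHA, 103 with CCCP and 116 in control, and the combination was at 0.748 times control (0.715 to 0.783). CTSA, the protective protein that holds the galactosidase GLB1 and the sialidase NEU1 in a stable complex, had 17.9, 19.2, 23.1 and 20.1 FPKM in the same order. It was above control with CCCP, at 1.15 times (1.08 to 1.22), and below it in the combination, at 0.888 times (0.835 to 0.945). CTSS, a cysteine protease best known from antigen-presenting cells, was scarce, with 2 reads in the combination, 3 with DHA, 8 with CCCP and 3 in control. Its level was 0.0274, 0.0412, 0.113 and 0.0365 FPKM, and no ratio can be read from so few reads.

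Among the other hydrolases, ASAH1, GAA and PSAP were higher than control with the combination and SMPD1 and LIPA lower. ASAH1, the acid ceramidase, had 4.16 FPKM in the combination, 2.69 with DHA, 3.53 with CCCP and 2.63 in control. Both libraries with CCCP were above control, by 1.58 times for the combination (1.44 to 1.74) and 1.34 times for CCCP alone (1.22 to 1.48). On log2(FPKM + 0.5) its combination ratio is 0.58, just short of the 1.5-fold rule, and with a pseudocount of 0.1 it is 0.64, past it. SMPD1, the acid sphingomyelinase that makes the ceramide ASAH1 cleaves, went the other way between the CCCP libraries. It had 7.4 FPKM in the combination, 8.72 with DHA, 13.6 with CCCP and 9.9 in control. The combination was at 0.747 times control (0.651 to 0.856) and CCCP alone at 1.37 times (1.22 to 1.54).

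GAA, the acid alpha-glucosidase that degrades glycogen, had 21.0 FPKM in the combination, 17.5 with DHA, 21.9 with CCCP and 15.5 in control. Its treated libraries were all above control, at 1.35 (1.27 to 1.45), 1.13 (1.05 to 1.21) and 1.41 times (1.32 to 1.51). PSAP had 531, 501, 523 and 445 FPKM in the same order, so it too was above control throughout, by 1.19 (1.17 to 1.21), 1.13 (1.11 to 1.15) and 1.17 times (1.16 to 1.19). LIPA, the acid lipase that frees cholesterol from its esters, had 14.7, 14.9, 15.4 and 16.3 FPKM and was highest in control. Its ratio was 0.904 (0.839 to 0.975) for the combination and 0.949 for CCCP, where the interval included 1 (0.881 to 1.02).

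The remaining hydrolases differed less from control. NEU1, the lysosomal sialidase, had 8.95 FPKM in the combination, 7.47 with DHA, 10.9 with CCCP and 8.67 in control. It was lower with DHA, at 0.862 times control (0.775 to 0.958), and higher with CCCP, at 1.26 times (1.15 to 1.39). TPP1, a tripeptidyl peptidase, had 16.1, 14.0, 18.5 and 15.3 FPKM and showed the same order of libraries, with DHA at 0.919 (0.86 to 0.983) and CCCP at 1.21 times control (1.14 to 1.29). GUSB, the beta-glucuronidase, had 24.0, 25.4, 28.7 and 25.4 FPKM, with CCCP at 1.13 times control (1.06 to 1.2). GLB1, the beta-galactosidase, had 23.9, 22.2, 25.8 and 24.4 FPKM, with DHA at 0.912 times control (0.855 to 0.973). For GLA, the alpha-galactosidase, on 237 to 246 reads, and HEXA, the alpha subunit of beta-hexosaminidase, on 599 to 709 reads, no difference from control was detectable, as all 6 intervals included 1. GLA had 6.04, 6.15, 6.47 and 5.53 FPKM and HEXA 2.75, 3.01, 3.07 and 2.89 FPKM.

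The proton pump subunits had the narrowest range of the 4 classes with the combination, from -0.33 to 0.23 on the log2 scale, and the widest with DHA alone, from -0.34 to 0.26. Summed over 11 genes they came to 188 FPKM in the combination, 181 with DHA, 201 with CCCP and 185 in control, and their log2 ratios to control stayed between -0.35 and 0.30 in all 3 comparisons. The largest drop was that of ATP6V0D1, the V0 subunit d that joins the membrane ring to the central stalk. It had 5.21 FPKM in the combination, 6.18 with DHA, 5.14 with CCCP and 6.69 in control. Both libraries with CCCP were low, at 0.779 (0.708 to 0.856) for the combination and 0.768 times control (0.697 to 0.845) for CCCP alone. ATP6V0A1, the subunit a that forms the proton path, had 5.65, 5.78, 6.11 and 5.79 FPKM, and its 3 intervals against control included 1. ATP6V0B, a ring subunit, had 12.6, 13.0, 12.1 and 11.7 FPKM and lay above control with DHA alone, at 1.11 times (1.002 to 1.22). The lower end of this interval lay near 1, and the interval was not redrawn at equal totals.

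Within V1, the genes of the catalytic head lay above control with CCCP alone and below it with DHA. ATP6V1A, the subunit that hydrolyses ATP, had 19.4 FPKM in the combination, 18.2 with DHA, 27.0 with CCCP and 23.0 in control. Both libraries with DHA were below control, at 0.841 (0.79 to 0.896) for the combination and 0.788 times (0.739 to 0.841) for DHA alone, and CCCP alone was above it, at 1.17 times (1.11 to 1.24). ATP6V1B2, its partner in the head, had 21.9, 22.7, 29.5 and 23.9 FPKM and lay on the same sides of control, with the combination at 0.916 (0.872 to 0.962), DHA at 0.95 (0.905 to 0.997) and CCCP at 1.23 times (1.18 to 1.29). Of the central stalk, ATP6V1D had 16.6, 17.0, 14.3 and 14.1 FPKM and was high in both libraries with DHA, at 1.18 (1.08 to 1.27) and 1.2 times control (1.11 to 1.3). ATP6V1F, also of the central stalk, had 40.8, 35.4, 39.3 and 38.5 FPKM, and all 3 intervals against control included 1.

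The peripheral stalk subunit ATP6V1E1 had 27.1, 25.7, 29.1 and 23.6 FPKM and was above control in all 3 treated libraries, most with CCCP at 1.23 times (1.15 to 1.32). ATP6V1C1, which links the stalks to the membrane sector, had 11.9, 10.9, 10.2 and 10.6 FPKM. ATP6V1H, a regulatory subunit, had 10.4, 8.93, 9.43 and 8.94 FPKM. Both were highest in the combination, at 1.12 (1.03 to 1.21) and 1.17 times control (1.06 to 1.28). ATP6AP1, an accessory subunit needed for pump assembly, had 16.7, 17.9, 18.3 and 17.7 FPKM, and its 3 intervals against control included 1.

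**Figure D3:**
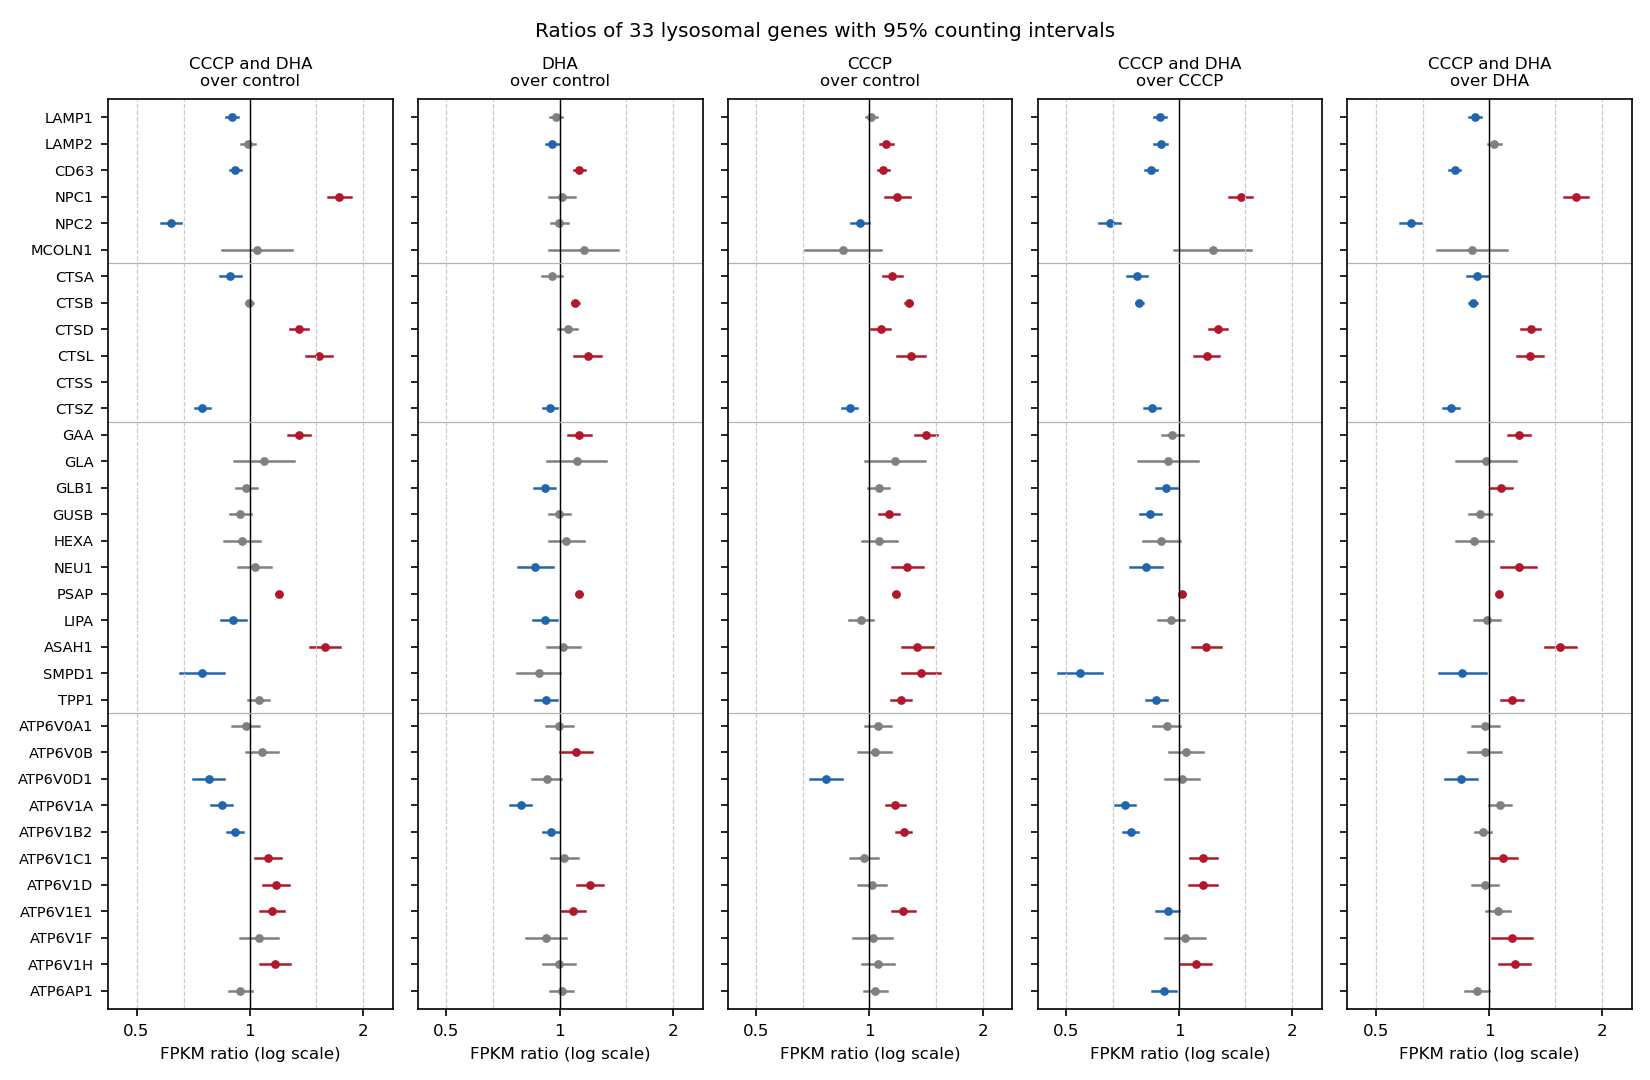
FPKM ratios (log scale) of the 33 tested lysosomal genes with 95% counting intervals, in 5 panels for the comparisons named above them. Red marks intervals above 1, blue below 1 and grey those that include 1, and dashed lines mark 1.5-fold and 2-fold either way. NPC1 at 1.73 and NPC2 at 0.617 are the extremes of the first panel, and SMPD1 at 0.544 is the lowest point of the fourth.

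The combination against CCCP alone compared cells with and without DHA where both had CCCP, with 1 library on each side. Of 33 genes 0 were at least 2-fold higher or lower, against 3.46% and 4.94% of all tested genes. At 1.5-fold, 0 were higher, against 8.87%, and 2 were lower (SMPD1 and NPC2), against 12.4%. SMPD1 was at 0.544 times its level with CCCP alone (0.476 to 0.622). ATP6V1A and ATP6V1B2 followed among the pump genes, at 0.717 (0.673 to 0.764) and 0.742 times (0.707 to 0.779). CTSA and CTSB were at 0.773 (0.726 to 0.823) and 0.783 times (0.766 to 0.8). Above the CCCP level were 12 of 33, against 50.6% of all tested genes, with a median log2 ratio of -0.10, beside 0.0067 over all tested genes. CTSD was among the 12, at 1.27 times (1.2 to 1.34).

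The combination against DHA alone compared cells with and without CCCP where both had DHA, again with 1 library on each side. No gene was 2-fold higher or lower, against 3.27% and 3.63% of all tested genes. At 1.5-fold, NPC1 alone was higher, against 7.64%, and NPC2 alone was lower, against 9.38%. ASAH1 came next to NPC1, at 1.55 times its level with DHA alone (1.41 to 1.7), followed by CTSD at 1.29 (1.22 to 1.36) and CTSL at 1.28 times (1.19 to 1.39). CTSZ and CD63 followed NPC2, at 0.793 (0.756 to 0.832) and 0.811 times (0.784 to 0.839). Above the DHA level were 15 of 33, against 49.8% of all tested genes, and the median log2 ratio was -0.02. With equal totals, 20 of 33 lay above it, against 55.0%.

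Whether the compounds added up was read from the departure from additivity, the log2 level of the combination minus those with CCCP and with DHA plus that of control. It was below 0 for 23 of 33 genes, against 50.3% of all tested genes, with a median of -0.10, beside -0.0033 over all tested genes. SMPD1 had -0.66 (counting interval -0.92 to -0.40), NPC2 -0.61 (-0.72 to -0.49), CTSB -0.49 (-0.53 to -0.45) and CD63 -0.42 (-0.49 to -0.35). On the other side NPC1 had 0.49 (0.34 to 0.65) and CTSD 0.27 (0.15 to 0.38). At the deposited scaling these 2 were the only intervals wholly above 0. The lower ends of ASAH1 (-0.0097) and ATP6V1C1 (-0.0035) fell just short of 0. The upper ends of LAMP2 (-0.017), ATP6V1A (-0.0054) and ATP6AP1 (-0.0067) lay just below it. CTSL was additive within counting error, at -0.0036 (-0.17 to 0.16). With equal totals the median over all tested genes became 0.09 and that of the lysosomal genes -0.0081, and 18 of 33 were below 0, against 40.8% of all tested genes. Intervals of single genes were not redrawn at equal totals, so which of them exclude 0 holds for the deposited scaling only. With 1 library per group the departure has no test.

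**Figure D4:**
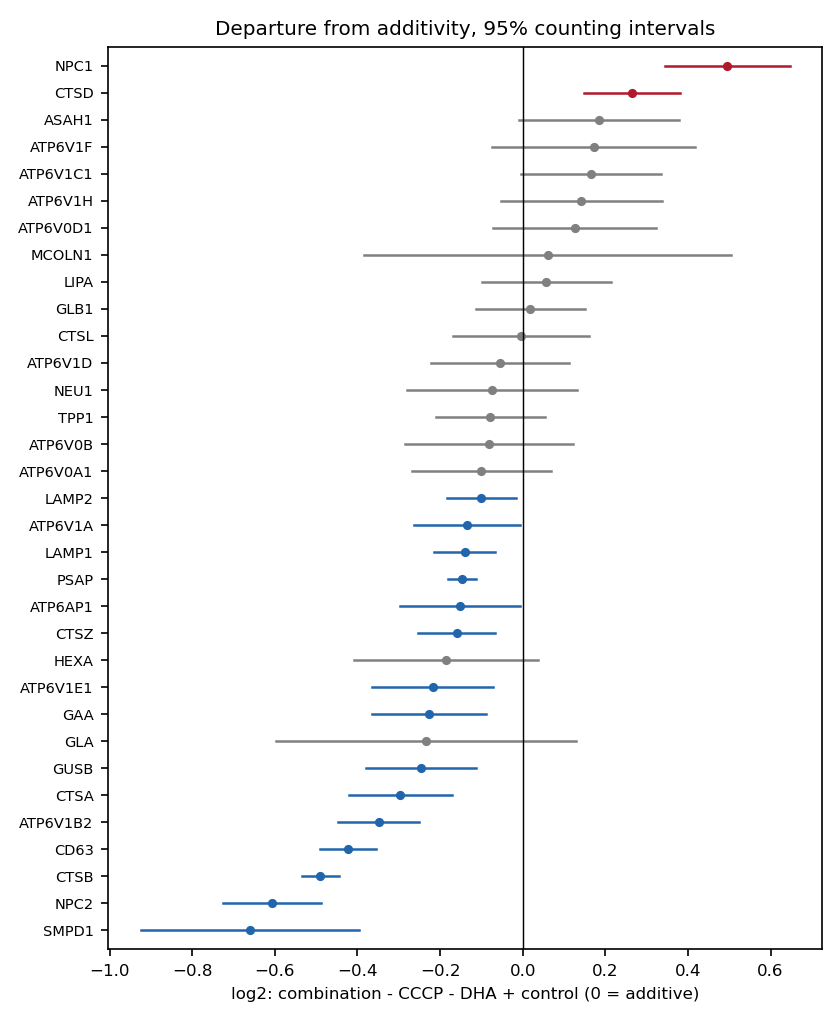
Departure from additivity (log2; 0 means that the 2 single effects add up) of the 33 tested lysosomal genes, ordered from high to low, with 95% counting intervals. Red intervals lie above 0 and blue ones below. NPC1, at 0.49, tops the order and SMPD1, at -0.66, ends it.

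Since CCCP was in 2 libraries and DHA in 2, an additive limma-trend fit over all 13678 genes could test each compound over both pairs. The only residual of a gene is its departure from additivity, with 1 degree of freedom, which limma moderates with a trend over all genes. This spread is not the variation between replicates, which is unknown here. For CCCP, 0 lysosomal genes passed an adjusted p of 0.05, against 0.0366% of all tested genes that rose and 0.0585% that fell. For DHA, 0 passed as well, against 0.095% that rose and 0.00731% that fell. At an unadjusted p under 0.05 there were 4 for CCCP (ASAH1, NPC1, GAA and CTSL), against 14.5% of all tested genes, and 2 for DHA (ATP6V1A and SMPD1), against 12.1%. Limma without trend and voom on recovered reads also gave 0 for each compound. The smallest adjusted p for CCCP was that of ASAH1 (0.265, log2 effect 0.46, SE 0.15, higher in both pairs). For DHA it was that of ATP6V1A (0.356, log2 effect -0.40, SE 0.14, lower in both pairs).

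Other genes of the lysosome gave a wider range than the 34. Of 36 further hydrolases and membrane proteins, 34 were tested. With the combination 1 was at least 2-fold higher and 2 were lower, against 4.52% and 5.44% of all tested genes, so these counts lie near the share over all genes. The median log2 ratio was -0.18 with the combination, beside -0.08 with DHA and 0.10 with CCCP. SGSH, the heparan N-sulfatase, had 9.57 FPKM in the combination, 5.98 with DHA, 6.12 with CCCP and 4.48 in control, and was 2.13 times control in the combination (1.93 to 2.36). The aminopeptidase cathepsin gene CTSH had 10.7, 17.4, 22.0 and 24.6 FPKM in the same order and was 2.29-fold lower in the combination than in control (2.13 to 2.46). CTSV, a close relative of CTSL, had 0.826, 1.43, 2.62 and 2.38 FPKM and was 2.89-fold lower in the combination (2.18 to 3.85), on 67 reads against 218. CTSC, the dipeptidyl peptidase that activates serine proteases, had 17.9, 28.6, 31.1 and 30.8 FPKM and was 1.72-fold lower (1.65 to 1.79). CTSH and CTSC thus lay below control with the combination while CTSL and CTSD lay above it.

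Of 14 further V-ATPase subunit genes, 8 were tested, and with the combination 0 were 2-fold higher and 1 was lower, against 4.52% and 5.44% of all tested genes. That gene was ATP6V1G3, with 5 reads in the combination and 27 in control. ATP6V1G1, a peripheral stalk subunit, had 57.9 FPKM in the combination, 49.9 with DHA, 39.7 with CCCP and 41.7 in control, at 1.39 times control in the combination (1.28 to 1.51). ATP6V0A2, another subunit a, had 2.17, 1.55, 1.23 and 1.52 FPKM, at 1.43 times control (1.25 to 1.63). ATP6V0E2, a small V0 subunit, had 3.57, 4.27, 4.49 and 4.55 FPKM, at 0.785 times control in the combination (0.691 to 0.891).

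Among the genes that sort hydrolases from the Golgi to the lysosome, the receptor genes SORT1 and IGF2R lay farthest from control with the combination. Of 9 sorting genes, all tested, 0 were 2-fold higher with the combination and 1 was lower, against 4.52% and 5.44% of all tested genes. M6PR, the small mannose 6-phosphate receptor, named here after its values were seen, had 22.3 FPKM in the combination, 22.0 with DHA, 19.0 with CCCP and 20.5 in control, at 1.09 times control in the combination (1.01 to 1.17). SORT1, which encodes sortilin, a receptor of prosaposin and other cargo, had 18.0 FPKM in the combination, 31.8 with DHA, 53.2 with CCCP and 45.3 in control. Both libraries with DHA were low, and the combination was 2.52-fold below control (2.41 to 2.63). IGF2R, the large mannose 6-phosphate receptor, had 48.2 FPKM in the combination, 30.3 with DHA, 24.1 with CCCP and 24.4 in control. It was high in both libraries with DHA, at 1.97 times control in the combination (1.92 to 2.03). GGA2, an adaptor of these receptors, had 8.21, 11.2, 10.3 and 12.0 FPKM, and GNPTAB, whose enzyme makes the mannose 6-phosphate tag, 6.6, 7.2, 8.83 and 8.24 FPKM. They were at 0.685 (0.636 to 0.737) and 0.801 times control (0.741 to 0.865) in the combination.

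Of the MiT/TFE factor genes, TFE3 was the most abundant. It had 23.3 FPKM in the combination, 20.7 with DHA, 20.3 with CCCP and 18.6 in control, at 1.25 times control in the combination (1.17 to 1.34). TFEB had 1.17, 1.26, 1.32 and 1.19 FPKM in the same order, and all 3 intervals against control included 1. MITF, a lineage gene of melanocytes, had 5.01 FPKM in the combination, 7.35 with DHA, 8.89 with CCCP and 8.81 in control. In the combination it was 1.76-fold lower than in control (1.59 to 1.94). TFEC had at most 4 reads. These factors are regulated largely by phosphorylation and entry into the nucleus, which mRNA levels do not show.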

How the data were processed

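RNA of 4 OMM2.3 libraries was measured, 1 per group, prepared with Illumina's TruSeq RNA kit from total RNA, per the labels' protocols; this kit does not mark strand. The authors deposited FPKM per gene, per the file headers; which aligner, counting tool and build were used is not given in the sources used. All 58735 identifiers matched GENCODE 29 (GRCh38). FPKM multiplied by summed exon length came out, in each library, as whole reads for 100% of values above 0 (tolerance 0.01 reads), which served for depth and intervals; library sizes implied by these reads were within 2.78% of their sums. FPKM were used as deposited.

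Log2 ratios used FPKM plus a pseudocount of 0.5, over the 13678 genes that reached 1 FPKM in any library. Fold ratios used no pseudocount, and their 95% intervals are exact Clopper-Pearson ones from recovered reads. Intervals of the departure from additivity are normal approximations from read counts. Each compound was tested with limma-trend (additive model, Benjamini-Hochberg over all genes). On simulated data with additive changes of 4-fold and 8-fold, it recovered all changed genes, with 18 false calls for each compound. Smaller changes, such as those of the lysosomal genes, were not simulated, so how well the fit finds them is unknown. The alternatives were voom on recovered reads, limma without trend, and other pseudocounts, filters and scalings. Whether cultures or RNA were pooled is not given, and reads without molecular identifiers are not independent molecules.

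The lists of genes were chosen with earlier results of these data known. All 34 genes could be named; of the other lysosomal, V-ATPase and sorting lists, the 4 with the largest absolute log2 ratio of the combination to control and a mean of at least 1 FPKM. Promoters came from RefSeq. Tools were R 4.3.3, limma 3.58.1, Python 3.11.15, scipy 1.17.1, pandas 2.3.3, matplotlib 3.10.9 and numpy 2.4.6.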

Additional observations from a re-analysis of the deposited data

Results flagged for a closer look

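For 5 genes the effect of a compound had opposite signs with and without the other compound, with both counting intervals excluding 1 at the deposited scaling. The difference was not tested, since each group is 1 library. For DHA, CD63 was at 0.841 times in cells that also had CCCP and 1.13 times in cells without it, a difference in log2 ratio of -0.42. CTSB was at 0.783 and 1.1 times in the same order (difference -0.49), and ATP6V1E1 at 0.931 and 1.09 times (difference -0.22). For CCCP, CD63 was at 0.811 times in cells that also had DHA and 1.09 times in cells without it (difference -0.42). CTSB was at 0.905 and 1.27 times (difference -0.49), CTSA at 0.931 and 1.15 times (difference -0.30) and SMPD1 at 0.849 and 1.37 times (difference -0.66). The intervals take the library scaling as fixed, while implied library sizes lay from -1.39% to 2.78% off the summed reads. Some interval ends lay near 1: 0.9998 and 1.01 for ATP6V1E1, 0.993 for CTSA and 0.981 for SMPD1. The flags of these genes may thus not hold at equal totals, for which flags were not redrawn.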

How the results depend on the processing

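The counts at 2-fold were 0 under equal totals, median of ratios, a filter at a mean of 5 FPKM, no filter, and pseudocounts of 0.1 and 1 and, added after seeing the data, protein-coding genes alone. Of the counts at 1.5-fold, 3 changed. With a pseudocount of 0.1, ASAH1 joined the genes higher in the combination, which became 3 against control and 2 against DHA. The genes lower in the combination than with CCCP became 1 with equal totals. Median log2 ratios stayed between 0.06 and 0.13 for CCCP, -0.05 and 0.0055 for DHA, and -0.01 and -0.0046 for the combination, all against control. The additive fit gave 0 lysosomal genes under every alternative, with the smallest adjusted p from 0.0635 to 0.455 for CCCP and from 0.111 to 0.591 for DHA; without a filter limma called its own variance estimate unreliable. Fits without 1 library were not run, since no residual degree of freedom would be left. No paired analysis was possible because each group has 1 library.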
